A study of Mus musculus with 2 samples.

Results

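The regions described here are the strongest promoter peaks that both DNase-seq libraries of mouse hippocampus share. DNase I cuts DNA most readily where chromatin is open, and a peak is a stretch with many cuts. A region was a member when a replicate 1 peak had a peak value of 4 or more, touched the 1 kb on either side of a transcription start site (TSS) of a protein-coding gene, and overlapped a replicate 2 peak of 4 or more by at least 1 bp. The members were therefore selected on the peak values of both libraries, which are the authors' signal height, on a scale that the sources used here do not state. In all, 415 of the 93545 replicate 1 peaks met the rule (0.444%). They made up 1.82% of the 22837 replicate 1 promoter peaks that overlapped any replicate 2 peak, called shared promoter peaks below, and the other 22422 of these serve as the comparison. A value of 4 was reached by 1.04% of the replicate 1 peaks and by 0.963% of the 79144 replicate 2 peaks, and the median value of all peaks was 0.657 and 0.651.

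Both libraries came from tissue labelled layer of hippocampus, taken from B6CASTF1/J mice of 25 days, the first-generation hybrid of a laboratory strain and the CAST strain, and both carry the label male. They form 1 group of 2 libraries, numbered biological replicate 1 and 2, with no treatment given. Which layer was taken is not stated. The labels list a separate tissue sample for each library under a shared donor entry, so they do not tell whether the animals were separate. The libraries differed in their sex-linked peaks, given next. The spread between them may therefore include animal and sex differences as well as technical ones. Sex-linked promoters went against the label of replicate 2. In replicate 1 the Y-linked genes Ddx3y, Uty, Kdm5d and Eif2s3y had promoter peaks with highest values of 0.707, 0.678, 0.424 and 0.89, and Xist, the RNA that silences an X chromosome in female cells, had no peak. In the library labelled male replicate 2 none of the Y-linked genes had a peak, and Xist had 3, the highest at 1.01. No member lies on a sex chromosome, so no member value rests on these loci. With a single group no condition could be compared, and no test is given. Member values are a description, and the intervals printed below are exact 95% binomial intervals on shares that cover counting error only.

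A promoter is the stretch around a TSS where transcription factors and RNA polymerase assemble. Promoters of genes that nearly all cells use are often CpG islands, rich in the CG dinucleotide that is scarce elsewhere in the genome. They tend to carry sites of broadly expressed factors such as NRF1, NFY, ETS, SP and CREB family proteins. Transcription from them often starts in both directions. Transfer RNA (tRNA) genes are a different class. RNA polymerase III reads them from a promoter inside the gene, made of the A box and the B box.

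Sequences that carry the motif results are shown first. All are from the RefSeq sequence of GRCm38.p6, the same build as the mm10 coordinates of the files, on the strand of the nearest gene, and the stretches before the tRNA genes hold no exon of the GENCODE annotation. The mice were hybrids, and differences of the CAST strain from this reference were not examined here or in the sequence counts below. Capitals mark exact matches to the motifs named in each lead-in, and where matches on both strands overlap, as for NRF1, the capitals join them. The first pair are exon-free stretches of 2 of the strongest members, at Ccdc66, a protein of centriolar satellites and cilia, and at Prmt5, an arginine methyltransferase, with NFY matches (CCAATNAG) in capitals. The Prmt5 stretch holds, near its start, the tRNA-Arg gene that is shown further down, read from its other strand.
Ccdc66 (chr14:27508461-27508640, minus strand): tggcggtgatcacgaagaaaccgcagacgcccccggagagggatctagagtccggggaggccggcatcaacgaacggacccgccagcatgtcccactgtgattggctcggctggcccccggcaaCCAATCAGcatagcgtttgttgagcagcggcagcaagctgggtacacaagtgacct
Prmt5 (chr14:54517541-54517780, minus strand): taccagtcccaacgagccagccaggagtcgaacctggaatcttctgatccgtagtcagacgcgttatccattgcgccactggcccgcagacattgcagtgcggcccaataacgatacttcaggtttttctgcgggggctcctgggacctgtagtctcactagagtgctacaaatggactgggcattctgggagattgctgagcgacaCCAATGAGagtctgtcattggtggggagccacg

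The next lines show motifs whose share was higher in the members than in the other shared promoter peaks. NRF1 (searched as GCGCATGCG) matches stand in Nup107, a nuclear pore scaffold protein, and in Opa1, the dynamin-like protein of mitochondrial fusion.
Nup107 (chr10:117792731-117792799, minus strand): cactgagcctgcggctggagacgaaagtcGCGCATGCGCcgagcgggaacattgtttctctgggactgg
Opa1 (chr16:29579245-29579313, plus strand): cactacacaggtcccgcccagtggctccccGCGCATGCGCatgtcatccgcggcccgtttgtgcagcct
The full CREB and ATF site (TGACGTCA) stands in Chd2, a chromatin remodeller, and in Nup214, another pore protein.
Chd2 (chr7:73537861-73537928, minus strand): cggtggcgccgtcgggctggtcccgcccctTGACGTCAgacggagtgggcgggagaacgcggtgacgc
Nup214 (chr2:31974376-31974435, plus strand): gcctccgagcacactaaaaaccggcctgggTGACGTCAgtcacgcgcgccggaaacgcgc
The NFY site stands in Ybx1, a cold shock domain protein that binds RNA, and the ETS site (CCGGAAG) in Mrpl17, a protein of the mitochondrial ribosome.
Ybx1 (chr4:119294611-119294678, minus strand): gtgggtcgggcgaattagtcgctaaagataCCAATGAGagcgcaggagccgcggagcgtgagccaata
Mrpl17 (chr7:105811288-105811354, minus strand): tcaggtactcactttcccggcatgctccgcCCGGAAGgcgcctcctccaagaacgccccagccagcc
The CGCG element (CTCGCGAGA) stands in Cand1, a regulator of cullin ubiquitin ligases, and beside a CREB site in Psmb2, a proteasome subunit.
Cand1 (chr10:119240240-119240308, minus strand): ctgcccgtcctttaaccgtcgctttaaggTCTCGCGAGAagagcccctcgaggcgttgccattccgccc
Psmb2 (chr4:126677565-126677629, plus strand): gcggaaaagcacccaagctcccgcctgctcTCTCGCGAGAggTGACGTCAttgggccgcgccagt

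The last set are tRNA genes that overlap member peaks, shown because members overlapped them more often than the other shared promoter peaks did, printed on their own strand with matches to the B box (GTTCGANNC, either strand) in capitals. The nearest protein-coding gene is named with each.
tRNA-Ser (TGA) near Ctnna3 (chr10:63429476-63429557, minus strand): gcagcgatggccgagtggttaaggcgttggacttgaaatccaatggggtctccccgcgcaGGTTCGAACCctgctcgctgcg
tRNA-Arg (ACG) near Prmt5 (chr14:54517696-54517768, plus strand): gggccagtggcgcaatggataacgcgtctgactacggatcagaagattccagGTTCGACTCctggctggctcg
tRNA-Trp (CCA) near Tmpo (chr10:91181412-91181483, minus strand): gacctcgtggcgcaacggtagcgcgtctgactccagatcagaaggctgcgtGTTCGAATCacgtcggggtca
tRNA-Glu (TTC) near Wbp4 (chr14:79481668-79481739, plus strand): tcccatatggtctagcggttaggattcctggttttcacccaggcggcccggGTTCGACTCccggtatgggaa
tRNA-Leu (AAG) near Polr3e (chr7:120917517-120917598, plus strand): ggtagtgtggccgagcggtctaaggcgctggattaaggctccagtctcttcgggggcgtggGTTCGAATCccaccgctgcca

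Among the members, most values lay close to the threshold. Replicate 1 had a median peak value of 4.74, and the library labelled male replicate 2 had 4.58, against 1.49 and 1.33 for the other shared promoter peaks, a contrast that the rule sets. The mean of both values was under 5 in 280 members and 6 or more in 26. The deposited values fall on a grid, and all values under 2 are whole multiples of 0.00707 in replicate 1 and of 0.00645 in replicate 2, within 5% of a step. A value of 4 is then 566 steps in replicate 1 and 621 in replicate 2. The sources used here do not say what a step stands for, so the number of cuts behind a peak is not known.

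The strongest member lay between Hjurp, the chaperone of the centromeric histone, and Trpm8, a cold-sensing ion channel, at chr1:88277501-88277780. Its values were 9.36 in replicate 1 and 11.4 in replicate 2. Next came the promoter of Wwox, an oxidoreductase with WW domains, at chr8:114439541-114439760, with 8.42 and 8.37. The Ctnna3 peak (an alpha-catenin) at chr10:63429461-63429700 had 8.18 and 7.99, and its centre lay at -517 bp from the Ctnna3 TSS. The tRNA-Ser gene shown above lies within it. Ccdc66 at chr14:27508421-27508640 had 7.93 and 7.81. These 4 peaks were 220 to 280 bp wide, narrower than the member median of 320 bp.

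The other 11 of the 15 strongest, by the mean of both values, are given by their known roles. Rsph1, a radial spoke protein of motile cilia, had 6.71 and 8.64 at chr17:31277221-31277500. Nup153, a protein of the nuclear pore basket, had 7.12 and 7.88 at chr13:46727901-46728140. Zswim1 had 7.96 and 6.53 at chr2:164822901-164823100. Genes that act on RNA or modify proteins were among them. Acin1, a splicing-associated protein, had 7.5 and 6.25 at chr14:54686541-54686880, and Prmt5 had 7.29 and 6.12 at chr14:54517541-54517780. Rbm27, an RNA-binding protein, had 6.37 and 6.84. Several regulators of transcription were also among the 15. Ski, a corepressor of TGF-beta signalling, had 6.48 and 6.55 at chr4:155223201-155223520, with the centre at -769 bp from the TSS. Cited2, a cofactor of CBP and p300, had 6.97 and 5.77 at chr10:17722861-17723260. Suds3, a subunit of the Sin3 deacetylase complex, had 6.92 and 5.74 at chr5:117115981-117116340. Genes of organelles completed the 15. Mrpl17 had 6.06 and 6.9 at chr7:105811001-105811380, and Atp6v1g2, a subunit of the vacuolar proton pump that shares its peak with Nfkbil1, had 5.96 and 6.68 at chr17:35236441-35236640. None of these genes is a marker of a hippocampal cell type in the lists used below. Rsph1 and Trpm8 are known from other tissues, and an open promoter does not show that the gene is transcribed.

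**Figure D1:**
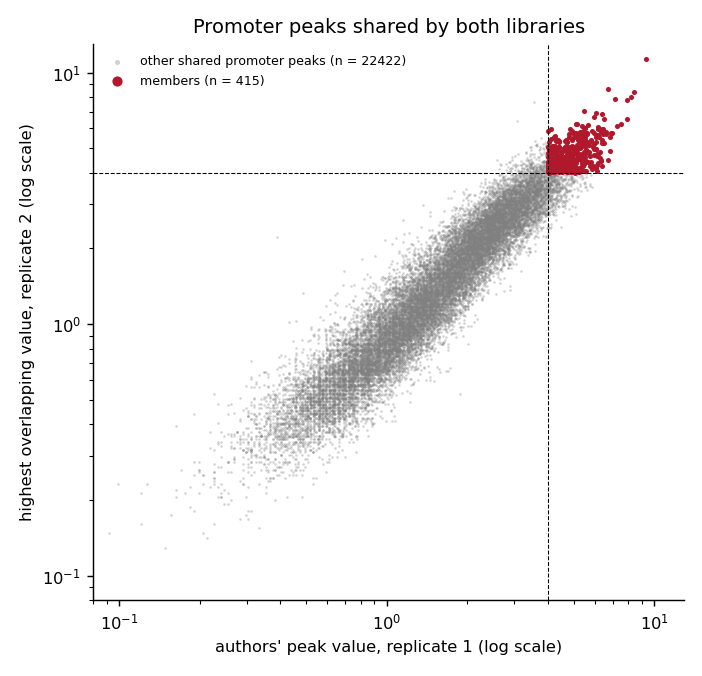
Peak values of the 22837 shared promoter peaks in replicate 1 (x axis) and the highest overlapping value in replicate 2 (y axis), both on log scales, with the 415 members in red and the other 22422 in grey. Dashed lines mark the value of 4, and the members form the upper right corner of 1 continuous cloud.

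The threshold cut through a continuous range. The 5 members just inside by their lower value were Ifrd1 (lower value 4.00), Nck1 (4.00), Zc3h3 (4.01), Rnf24 (4.01) and Polr2b (4.01). Among the shared promoter peaks just outside were Fzr1 and Hnrnpl (3.99953 each in replicate 1, 1 step under the lowest value that passed) and Cnnm2 and Ndufc1 (3.99642 each in replicate 2). Of the 837 replicate 1 promoter peaks with a value of 4 or more, 422 were no members. A replicate 2 peak below 4 overlapped 421 of these, with a median value of 3.51, and 1 had no overlapping peak. The near misses were thus peaks slightly weaker in replicate 2 and hardly ever peaks missing from it.

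Within the members the ratio of replicate 1 to replicate 2 had a median of 1.02, and 328 of 415 lay within 1.2-fold. The rule asks for 4 or more in both libraries and so narrows these ratios. In the other shared promoter peaks the median ratio was 1.11. Replicate 1 had the higher value at 234 members, and the library labelled male replicate 2 at 181. Spearman's rho was 0.425 and Pearson's r on log2 values 0.571 across the 415 regions, which share their libraries and a cut-off range and are not replicates. The ratio was largest at Hspa2, a heat shock protein best known from the testis (6.41 against 4.25, ratio 1.51), at Slc35e2 (6.75 against 4.49, 1.5) and at the zinc transporter gene Slc39a3 (6.13 against 4.08, 1.5). It was smallest at Erlin2 (4.01 against 5.85, 0.686), Ube2h (4.13 against 5.94, 0.696) and Lsm11 (4.13 against 5.47, 0.754). With 1 library on each side, these differences have no replicate error of their own, and the libraries also differed in their sex-linked peaks.

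Some members are not separate places. In 9 pairs, 2 member peaks of replicate 1 overlapped each other, as at Tmpo, Jarid2, Bag6 and Wbp4, so that the 415 peaks cover 406 separate stretches. Another 13 members overlapped more than 1 replicate 2 peak of 4 or more, of which the highest value was taken. Further copies in the reference, at 90% identity over 80% of the length, were found for 4 members. These were Hist1h4i (10 other copies), Dynlt1b (3), Ube2h (1) and Kifc1 (1), and their values are less certain. Repeat-masked sequence was more than 50% of the peak for 1 member and absent from 254. All 415 also overlapped a peak of the shorter list in both libraries, against 75.9% of the other shared promoter peaks. Of those whose lower value was 2 to 4, 99.9% did. This share goes with the peak values that the rule used, and is given as a description.

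Member peaks were high and compact. Their median width was 320 bp (quartiles 240 and 420, range 60 to 920), against 380 bp (240 and 520) for the other shared promoter peaks. Around them the stretch of continuous bases with an FDR of 0.001 or less was longer. It had a median of 1060 bp in replicate 1 and 966 bp in replicate 2, against 666 and 522 bp. The FDR comes from the same libraries as the peak values that the rule used, so this contrast is a description. The widest were the 920 bp peak at Wbp4 and Elf1, those of 880 bp at Ddx5 and Cep95, at Ifrd1 and at Rab40c, and that of 800 bp at Mfsd11 and Srsf2. Peak centres were near the TSS. Of the members 91.1% (87.9 to 93.6) had their centre within 250 bp of a TSS against 65.3% of the others, and 88.8% of the 6328 shared promoter peaks whose lower value was 2 to 4. On the strand of the nearest gene, 65.3% of member centres lay upstream of the TSS (60.5 to 69.9), against 43.5% of the others and 55.0% of the 2 to 4 group. The median position of the centre was -32 bp in the members.

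Footprints are short stretches inside a peak that a bound protein shields from cutting. They are called from the same reads as the peaks, so their number goes with the peak value and is given as a description. The members held a median of 6 footprints in each library, against 3 and 3 in the other shared promoter peaks and 6 and 5 in the 2 to 4 group. Footprints covered 29.9% of the bases of members in replicate 1 and 26.5% in replicate 2, against 10.3% and 8.29%. At least 1 footprint was called in both libraries in 414 of 415 members. The most were counted at Ddx5, an RNA helicase (16 in replicate 1 and 18 in replicate 2), at Jarid2, a component of the Polycomb complex PRC2 (20 and 10), at Mfsd11 and Srsf2 (15 and 14), at Cand1 (13 and 15) and at Pik3r3, a regulatory subunit of PI3 kinase (16 and 12). By contrast the strongest peak, at Hjurp and Trpm8, held 3 and 2.

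**Figure D2:**
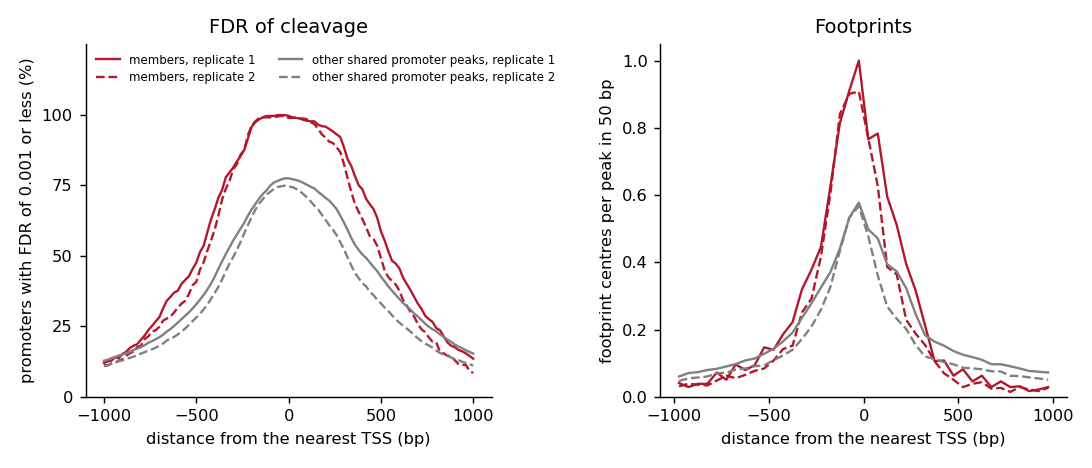
Left, the share of promoters (%) with an FDR of 0.001 or less at each distance from the nearest TSS (bp, upstream negative); right, footprint centres per peak in bins of 50 bp. Members are red and other shared promoter peaks grey, replicate 1 solid and replicate 2 dashed. At the TSS the shares were 99.5% and 98.8% for members and 77.4% and 74.5% for the others. By 1000 bp upstream they had fallen to 10.8% to 12.8% in both classes. The FDR and footprints come from the same libraries as the peak values that the rule used.

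The DNA under the members, which the rule did not use, was rich in CG. In the 300 bp at the peak centre the ratio of observed to expected CG dinucleotides had a median of 0.904 in members (quartiles 0.791 and 1.01), against 0.750 (0.533 and 0.902) in the other shared promoter peaks, 0.801 in those centred within 250 bp of a TSS and 0.871 in the 2 to 4 group. A ratio of 0.6 or more was found in 399 of 415 members (96.1%) and in 68.5% of the others. The GC content differed less, with medians of 65.7% and 63.7%. A single member had a ratio under 0.3, at Tef, a transcription factor with a circadian rhythm, where the ratio was 0.221 and the peak values 4.3 and 4.49.

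Motif matches in the same windows were counted as exact letters on both strands. A match is a description and not a bound site. Against the other shared promoter peaks, NRF1 had the largest ratio of shares of the motifs searched. Against windows at every annotated TSS, NRF1 (5.42) came after the degenerate CTCF motif (7.35). Against the 2 to 4 group, NRF1 (1.84) came after the TATA box (2.72), the B box (2.59) and the degenerate CTCF motif (2.06). Its letters were in 36 members (8.67%, 6.15 to 11.8), against 1.84% of the other shared promoter peaks, 4.71% of the 2 to 4 group, 10.7% of the 103 strong peaks away from promoters (11 peaks) and 1.6% of the 93459 windows of the same length centred on every annotated TSS. The full CREB and ATF site was in 28 members (6.75%, 4.53 to 9.6) against 1.9% of the others, 4.2% of the 2 to 4 group, 4.85% of the strong peaks away from promoters and 1.75% of TSS windows. A looser form of it (TGACGTNA), which includes the full site, gave 9.88% against 2.99%. The NFY site was in 55 members (13.3%, 10.1 to 16.9), against 5.48% of the others, 9.66% of the 2 to 4 group, 2.91% of the strong peaks away from promoters and 5.86% of TSS windows. The CGCG element was in 9 members (2.17%) against 0.745%, and in 1.94% of the 2 to 4 group.

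ETS, SP and YY1 sites were about as frequent in the 2 to 4 group as in the members, whose intervals included that group's shares. The ETS site was in 82 members (19.8%, 16 to 23.9) against 11.0% of all other shared promoter peaks, but in 21.1% of the 2 to 4 group. The SP and KLF site (GGGGCGGGG) was in 77 (18.6%, 14.9 to 22.6) against 13.6%, and in 21% of the 2 to 4 group. The YY1 site (AAGATGGCG) was in 17 members (4.1%) against 2.21%, and in 4.8% of that group. At least 1 of these 6 motifs (ETS, SP, YY1, NRF1, NFY, full CREB) was in 224 members (54.0%, 49.0 to 58.8), against 30.3% of the others and 51.8% of the 2 to 4 group. That left 191 members with none of them, among them the Wwox and Nup153 promoters.

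**Figure D3:**
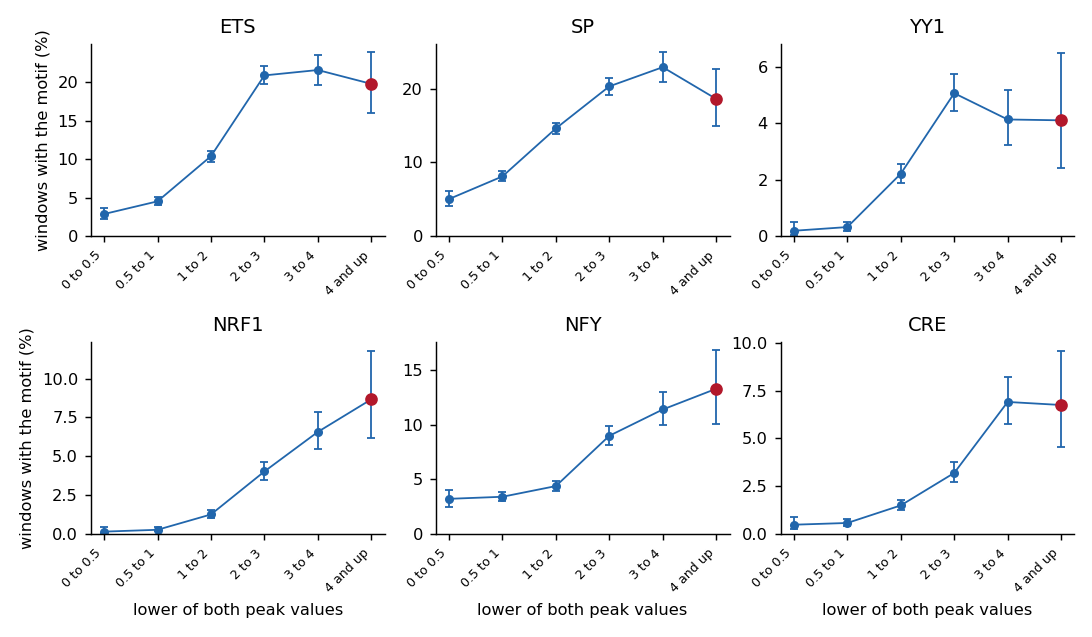
Share of 300 bp windows (%) that hold each of 6 motifs, by the lower of both peak values, with exact 95% intervals; the members are the red points at 4 and up. ETS, SP and YY1 shares level off from a value of about 2, at 20.9%, 20.3% and 5.06% for 2 to 3, while NRF1 rose bin by bin from 0.144% under 0.5 to 8.67% in the members.

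The shares followed the peak value across all shared promoter peaks. NRF1 went from 0.144% of the windows with a lower value under 0.5, through 1.25% at 1 to 2 and 6.57% at 3 to 4, to the 8.67% of the members. NFY went from 3.21% through 4.38% and 11.4% to 13.3%. The full CREB site stood at 6.91% for 3 to 4 and 6.75% in the members. CG content and distance to the TSS changed along the same range, and their part in the motif shares was not tested.

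The remaining motifs were each in fewer members than the full CREB site. The USF and MYC E-box (CACGTGAC) was in 5.06% of members against 2.51%, and in 4.91% of the 2 to 4 group. The TATA box (TATAAAA) was in 2.41% against 1.11%, in 0.885% of the 2 to 4 group and in 3.8% of TSS windows. The E2F site (TTTNGCGC) was in 2.89% against 2.01% and the EGR site (GCGTGGGCG) in 1.69% against 1.2%. In the 2 to 4 group the E2F and EGR shares were 2.59% and 1.44%. CTCF was searched as a degenerate consensus (3.13% against 1.52%, and 10.7% of the strong peaks away from promoters) and as AGGGGGCGC (3.86% against 2.56%). In the 2 to 4 group the CTCF shares were 1.52% and 3.14%. Sites of the FOS and JUN factors (TGANTCA), which open distal elements in active neurons, were in 7 members (1.69%, 0.681 to 3.44) against 3.92% of the others. The 2 to 4 group had 2.92%, which lies inside the member interval. The heat shock factor site (GAANNTTC, 4.82% against 4.74%), the proneural site (CAGATGG, 4.34% against 4.61%), the RFX site (GTTGCCATG, 0.964% against 0.718%), part of the REST site (TTCAGCACC, 0.723% against 0.624%) and the ZNF143 site (ACTACAATT, 0.241% against 0.263%) had intervals in members that included the value of the others. For the proneural site the 2 to 4 group had 2.56%, just under the member interval (2.59 to 6.77).

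Motif positions were set against the footprints. Of the 66 NRF1 match positions in members, where a palindromic site counts on each strand, 97.0% lay in a footprint in replicate 1 and 93.9% in replicate 2. The shares were 81.1% and 80.1% of 678 positions in the other shared promoter peaks. For the full CREB site they were 79.3% and 86.2% of 29 positions, against 59.9% and 68.8% of 439. The degenerate CTCF consensus had few positions, with 92.9% and 100% of 14 against 80.1% and 83.9% of 341. For the SP site they were 64.4% and 60.0% of 90, against 38.8% and 37.9% of 3860. For the ETS site they were 35.1% and 36.1% of 97, against 18.4% and 18% of 2904. For the NFY site they were 24.6% and 24.6% of 61, against 12.5% and 8.46% of 1336. Of all bases of the member windows 30.8% and 27.3% lay in a footprint, and the intervals for ETS (25.6 to 45.4 and 26.6 to 46.5) and NFY (14.5 to 37.3 in both) include these shares. In the windows of the other shared promoter peaks 11.1% and 9.28% of the bases did. The median position was -49 bp from the TSS for NRF1, -50 bp for CREB and -57 bp for NFY.

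tRNA genes lay under 11 members (2.65%, 1.33 to 4.69), against 0.116% of the other shared promoter peaks and 0.284% of the 2 to 4 group. In the strong peaks away from promoters they lay under 19 of 103 (18.4%). They came from 12 of the 403 tRNA genes that RefSeq annotates on the chromosomes, of which 201 overlapped some replicate 1 peak and 36 a peak of 4 or more. The members that held them had medians of 5.34 and 4.82, against 4.74 and 4.57 for the other 404. Highest were the tRNA-Ser gene near Ctnna3 (8.18 and 7.99) and the tRNA-Arg gene near Prmt5 (7.29 and 6.12), whose peak centre lies at -136 bp from the TSS, both among the 15 strongest. Next came a tRNA-Arg gene (anticodon TCG) at Polg, the mitochondrial DNA polymerase (6.61 and 5.72), a tRNA-Gly gene at Mettl26 (5.98 and 5.75), a tRNA-Trp gene at Tmpo, a nuclear lamina protein (5.34 and 5.56), and a tRNA-Ser gene at Knl1, a kinetochore protein (5.7 and 4.82).

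The others lay at 1700064H15Rik, where a single peak overlapped a pair of tRNA-Tyr genes and a tRNA-Ala gene (4.97 and 4.54), at Smarcc2 (tRNA-Ser, 4.33 and 4.57), at Wbp4 (tRNA-Glu, under both overlapping peaks) and at Polr3e (tRNA-Leu, 4.34 and 4.14). Polr3e encodes a subunit of RNA polymerase III itself. The tRNA-Leu gene, 1 of the tRNA-Tyr genes and the tRNA-Ala gene reach beyond the peak edge. Not all of these peaks reach the TSS of the protein-coding gene. Among those that end short of it are Ctnna3, Smarcc2, Knl1 and Tmpo, with centres at -517, -677, -278 and -366 bp. Each peak touches the 1 kb window of a coding TSS. Which of the tRNA gene and the coding promoter the height belongs to cannot be told apart. The B box letters were in 14 members (3.37%, 1.86 to 5.6), against 1.24% of the others and 1.06% of TSS windows. No member overlapped an annotated snRNA, snoRNA or rRNA gene, which allows a share of up to 0.723% (3 counts of 415; the exact interval reaches 0.885%), and 3 overlapped a microRNA precursor transcript. Of the other shared promoter peaks 0.263% did the last. The tRNA comparison was chosen after values were seen.

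A pair of genes often shared a member. Of the 415, 331 touched the TSS windows of 1 gene, 81 of 2 and 3 of 3. Genes on opposite strands were touched by 77 members (18.6%, 14.9 to 22.6), against 8.21% of the other shared promoter peaks and 15.2% of the 2 to 4 group. A head-to-head pair with its start sites within 1 kb was present at 71 (17.1%, 13.6 to 21.1), against 7.06% and 13.9%. Examples are Rpl7a, a ribosomal protein, with Med22, a Mediator subunit (chr2:26910621-26910880, 4.97 and 4.78), and Hnrnpa2b1, an RNA-binding protein, with Cbx3, a heterochromatin protein (chr6:51469821-51470280, 5.12 and 4.54). A peak at such a pair cannot be assigned to either gene, and both are counted below.

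In total 481 of 21951 protein-coding genes (2.19%) had a TSS window touched by a member, and 62.2% had a shared promoter peak of any value. Gene bodies were of similar length in both groups, with medians of 23.3 kb for genes with a member and 26.4 kb for genes with another shared promoter peak. Counts by gene list are read against the 2.19%. The genes within a list were not treated as replicates, and the lists were not tested.

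Lists whose interval lay above 2.19% were spliceosome, chaperone, both ribosomal, chromatin, circadian and CREB genes. Among genes with a shared promoter peak, which nearly all genes of these lists have, the share with a member was 3.52%. The interval of the mitochondrial ribosomal list (2.99 to 16.6) includes it, and those of the CREB (from 3.58) and cytosolic ribosomal lists (from 3.78) begin just above it. Spliceosome and hnRNP genes counted 7 of 50 (14%, 5.82 to 26.7), led by Hnrnpc at chr14:52104221-52104460 (6.42 and 5.4) and Hnrnpk at chr13:58402161-58402520 (6.26 and 4.85), which package nascent transcripts. The Hnrnpk peak lies nearer to the TSS of Rmi1, its neighbour on the other strand. Heat shock proteins and chaperonins counted 5 of 33 (15.2%, 5.11 to 31.9), led by Cct5, a chaperonin subunit (6.08 and 5.28), and Dnajb4, a co-chaperone (5.43 and 5.19). The list does not hold every such gene, and the members Hspa2 (6.41 and 4.25) and Dnajb5 (5.75 and 4.25) are outside it. Of the cytosolic ribosomal protein genes 7 of 76 (9.21%) were touched, with Rplp0 (6.34 and 4.47) and Rpl21 (5.52 and 4.6) highest in the list. Rps3a1, a ribosomal protein gene that the list's name pattern does not take in, is a member too (4.94 and 5.84). Of the mitochondrial ribosomal protein genes 6 of 75 (8.0%) were touched, with Mrpl17 (6.06 and 6.9) and Mrpl44 (5.13 and 6.23) highest.

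All 76 cytosolic and all 75 mitochondrial ribosomal protein genes had a shared promoter peak, and the medians of their best values were 3.23 and 2.82 for the cytosolic and 2.61 and 2.4 for the mitochondrial genes. The median over all genes with such a peak was 2.23 and 2.11. Ubiquitin and its conjugating enzymes counted 3 of 32 (Ube2m, 5.94 and 4.71; Ube2h, 4.13 and 5.94). Chromatin regulators counted 6 of 59 (10.2%, 3.82 to 20.8), led by the histone methyltransferase Kmt2a (chr9:44881321-44881640, 5.5 and 6.01) and the cohesin subunit Stag1 (chr9:100643361-100643680, 5.53 and 5.7).

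The intervals of the other lists of general cell genes included the background. Oxidative phosphorylation subunits counted 1 of 75 (Ndufa8, 4.16 and 4.96), proteasome subunits 1 of 48 (Psmb2, 4.31 and 4.75) and DNA repair genes 1 of 34 (Lig4, 4.28 and 4.21). Genes of DNA replication and the cell cycle counted 0 of 36, and actin, tubulin and their partners 0 of 27. In these 5 lists 95.8% or more of the genes had a shared promoter peak. The replication, cell cycle and repair lists do not hold every such gene. Outside them are the members at Pold3 (4.74 and 4.88), Cdc27 (6.87 and 5.56), Parp2 (4.84 and 4.62) and Fancf (5.83 and 4.43). Counts in between were 4 of 68 for translation factors (Eif4g3, 6.07 and 5.56; Eif5a, 4.21 and 5.08) and 3 of 37 for aminoacyl-tRNA synthetases (Iars, 4.62 and 4.63; Fars2, 5.24 and 4.02). There were 5 of 88 for RNA polymerase and general factors (Med22, 4.97 and 4.78; Taf15, 4.88 and 4.13) and 5 of 118 for vesicle trafficking (Rab8a, 5.16 and 6.27; Rab40c, 4.74 and 5.29). Histone genes gave 2 of 67 (Hist1h4i, 5.27 and 4.7; Hist1h4c, 4.61 and 4.43), glycolysis 1 of 17 (Hk1, 5.31 and 4.18) and genes named Zfp 9 of 394 (2.28%; Zfp143, 6.49 and 5.27, and Zfp638, 5.67 and 4.8, were highest).

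Circadian clock genes had the largest share of the 36 lists, 5 of 21 (23.8%, 8.22 to 47.2). The highest was Csnk1d, the casein kinase that phosphorylates PER proteins, at chr11:120991221-120991420 (5.5 and 5.58). Cry1, a repressor of the clock, followed at chr10:85185061-85185400 (5.36 and 4.42). Tef, Nr1d2 and Nr1d1 were nearer the threshold, with values between 4.04 and 4.49 in both libraries. Of the CREB, MEF2 and SRF factors and cofactors 3 of 18 were touched, all of them CREB family genes. These were Crem (4.66 and 4.55), Creb1 (4.11 and 4.51) and Atf4 (4.05 and 4.36).

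Activity-regulated genes, which neurons switch on after stimulation, counted 2 of 30. Egr1 had 4.9 and 4.24 and Klf6 had 4.18 and 4.18, while the strongest Fos promoter peak had 2.97 and 2.25. Of commonly used reference genes, Ppia was a member (5.43 and 4.63) and Actb was not, since its strongest peak had 3.89 in replicate 1 and 4.45 in replicate 2. Nuclear pore genes, a list put together after several were seen among the strongest members, counted 6 of 26 (Nup107, Nup133, Nup153, Nup214, Nup50 and Tpr), a count given as a description alone.

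**Figure D4:**
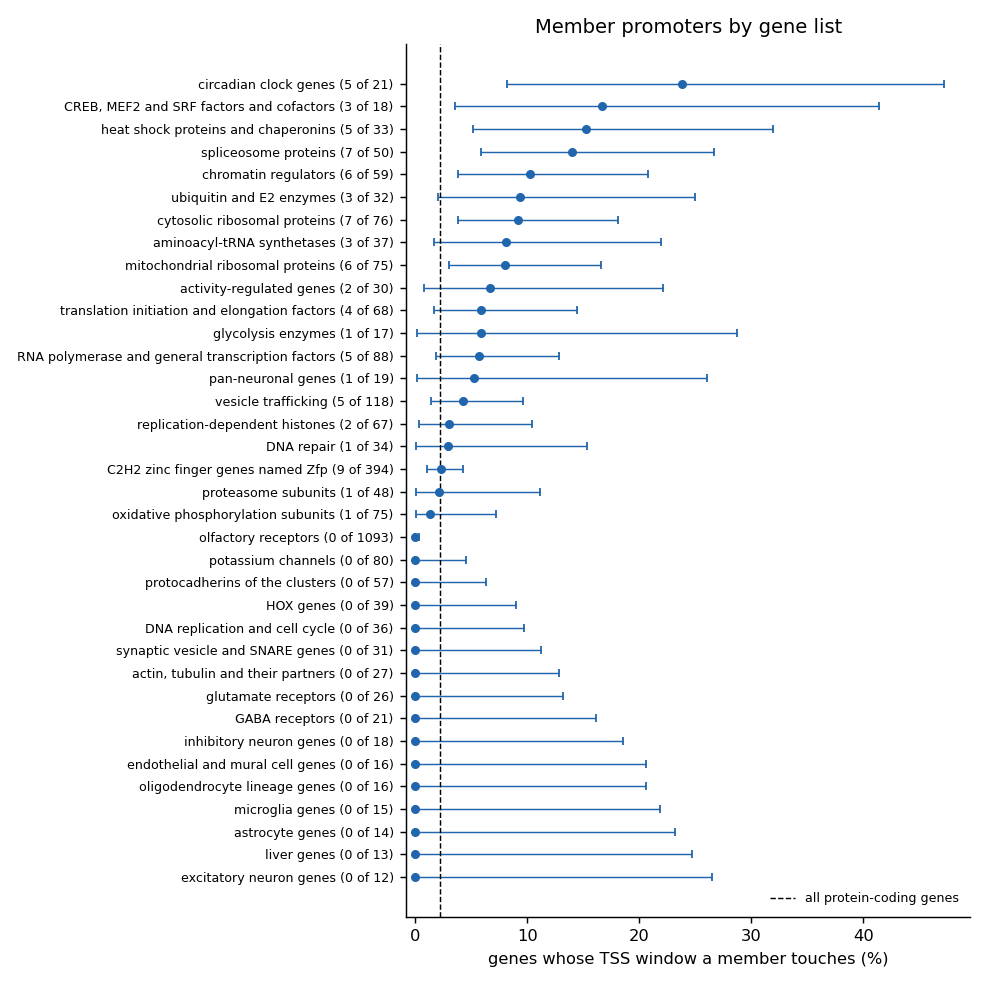
Share of the genes of each list (%) with a TSS window touched by a member, with exact 95% intervals and the counts beside each name; the dashed line is the 2.19% of all protein-coding genes. Circadian, CREB and chaperone lists lie at the top with wide intervals, and lists of synaptic, channel and cell type genes are at 0.

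Lists of neuronal and glial genes held a single member gene. There were 0 of 31 synaptic vesicle and SNARE genes, 0 of 26 glutamate receptors, 0 of 21 GABA receptors, 0 of 80 potassium channels, 0 of 12 excitatory and 0 of 18 inhibitory neuron genes, and 1 of 19 pan-neuronal genes. The 1 was Nova1, a neuronal splicing factor, at chr12:46819441-46819680 (5.27 and 5.0). These lists do not hold every such gene. The member at Kcnab2, a potassium channel subunit gene that shares its peak with Nphp4 (5.43 and 4.31), is outside them. Members at Ppp3ca (5.12 and 5.06) and at Ppfia3 and Lin7b (4.13 and 4.05) are outside them too. The counts are those of the listed genes alone. Lists of astrocyte, oligodendrocyte, microglial and vascular genes, HOX genes, clustered protocadherins, olfactory receptors and liver genes were at 0 as well. The upper interval bound was 0.337% for the 1093 olfactory receptors and lay between 4.51% and 26.5% for the other lists at 0, so that their intervals include 2.19%. The synaptic vesicle promoters were open below the threshold, as 96.8% had a shared promoter peak with medians of the best value of 2.02 and 2.09.

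Of 35 marker genes of hippocampal and other cell types, 0 were members, and 18 had a shared promoter peak. All 5 pan-neuronal markers had one, with values from 1.78 to 2.49 in replicate 1 and from 1.53 to 2.4 in replicate 2. Of the excitatory neuron markers 3 of 4 had one, Neurod2 being the exception, and of the inhibitory neuron markers 1 of 3, with none at Gad2 and Slc32a1. Astrocyte markers had 2 of 4, endothelial markers 1 of 3 and erythroid markers 2 of 3. Dentate granule cell markers had peaks too, with 1.51 and 1.06 at Prox1. None of the 4 microglial markers (Cx3cr1, Trem2, P2ry12, Csf1r) and neither liver marker had one, and of the oligodendrocyte markers Mbp alone did (1.26 and 0.973). In bulk tissue, fewer cells of a type and less open chromatin in each cell cannot be told apart.

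No member lay on the X chromosome, 0 of 415, which allows a share of up to 0.723% (3 counts of 415; the exact interval reaches 0.885%), against 3.22% of the other shared promoter peaks. X-linked promoters were lower as a whole. Their 723 shared promoter peaks had medians of 0.869 and 0.773 (the second from the library labelled male replicate 2), against 1.55 and 1.38 for 22114 autosomal ones, ratios of 0.562 and 0.561. A lower value of 2 or more was reached by 13 X peaks (1.8%) and by 30.4% of autosomal peaks. A lower value of 4 or more was reached by 1.88% of autosomal peaks and by no X peak. By the lower of both values the highest X peak was near Gm21887 (3.57 and 7.63), followed by Yipf6, a Golgi protein (3.56 and 3.22), and a second peak near Gm21887 (3.07 and 6.42). The ratios of X to autosomal medians were alike in both libraries, which differed in their Xist and Y-linked peaks. The cause of the lower X values was not tested. Among the autosomes the share of shared promoter peaks that were members ran from 1.08% on chromosome 16 to 2.64% on chromosome 4.

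**Figure D5:**
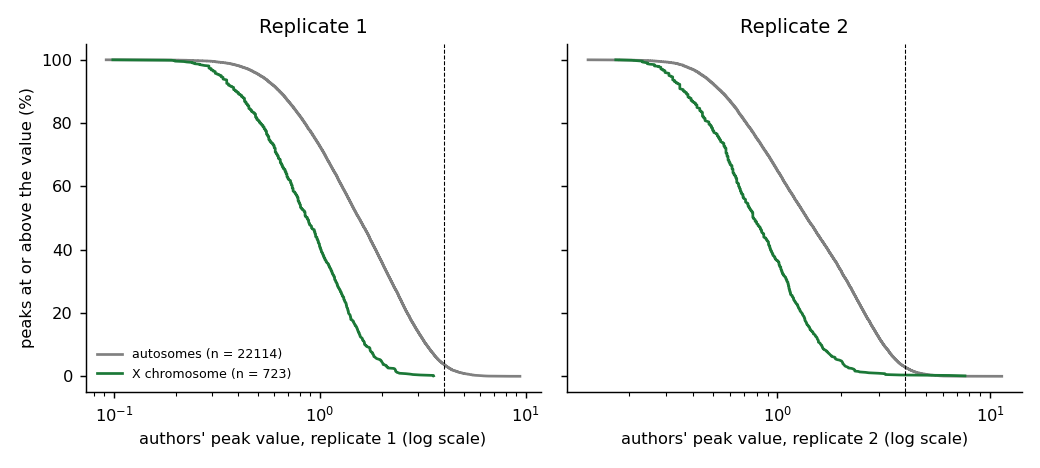
Share of shared promoter peaks (%) at or above each peak value (log scale) for the 22114 autosomal and 723 X-linked peaks, replicate 1 left and replicate 2 right; the dashed line is the value of 4. The X curve runs to the left of the autosomal one in both libraries, with medians of 0.869 and 0.773 against 1.55 and 1.38.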

How the data were processed

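DNase-seq of 2 libraries (1 group) was deposited as peak lists, footprints and an FDR per run of bases, each made per library. Per the file headers the peak value in the deposited lists is the authors' signal, with scaling not given. The deposited FDR, an adjusted p-value per run of bases, is listed where it is under 0.05. The assembly was mm10, per the labels. For aligner, callers and filters, versions and settings were not given in the sources used here, and the cut depth is unknown.

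The longer peak list of each library was used. Start sites came from all transcripts of protein-coding genes of GENCODE M21, sequence and tRNA genes from RefSeq GRCm38.p6. Motifs were counted as exact letters in 300 bp at the peak centre. Copies were searched with blastn 2.17.0. Intervals are Clopper-Pearson (95%), computed with Python 3.11.15, numpy 2.4.6, pandas 2.3.3 and scipy 1.17.1, and figures were drawn with matplotlib 3.10.9. The code was tested on simulated data.

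Members, the 36 gene lists and the motifs were chosen with earlier results of these data known. Genes named by rule were the 15 strongest members, the 5 on each side of the threshold, the 3 largest and 3 smallest ratios, the 5 widest, the 5 with most footprints, the top 2 of each list, Actb, Ppia, Egr1 and Fos. Some items that the rule names are not reported here. Other genes, the tRNA and nuclear pore lists, the B box and the degenerate CTCF motif were chosen after values were seen. Alternatives were other thresholds, TSS windows, overlaps, peak lists and single libraries.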

Additional observations from a re-analysis of the deposited data

How the results depend on the processing

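The number of members rests on the threshold. It was 2136 with a threshold of 3 in both libraries and 86 with 5, against 415 as reported. From a single library it ranged from 615 (replicate 2 alone) to 837 (replicate 1 alone). A share of 0.14% of the members lay on the X chromosome at a threshold of 3 and 0.325% in replicate 2 alone. The median number of replicate 1 footprints per member ranged from 5 to 7 in these single-library sets. Of 85 alternative values, 80 stayed within the interval of the value reported, or within 1.5 times for counts. The 5 that did not were the number of members at thresholds of 3 and 5 and in replicate 1 alone, and the replicate 1 footprints in both single-library sets. Autosomes alone leave the member set unchanged, and the shorter lists gave the same values throughout. Their values are counted in the 80 but are no separate check. A replicate 2 threshold of 3.79, which as many of its promoter peaks reach as reach 4 in replicate 1, gave 500 members, TSS windows of 500 bp and 2.5 kb gave 407 and 429, a reciprocal overlap of 50% gave 370, and the shorter lists and autosomes alone gave 415. Chosen after seeing the data were start sites of protein-coding transcripts alone (413) and overlapping members counted once (406).

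Across the other member sets the ETS share alone was computed, and it ranged from 19.1% to 21.9%. The motif ratios depended on the comparison peaks. The ETS share of members was 1.8 times that of all other shared promoter peaks, 1.35 times that of those within 250 bp of a TSS and 0.937 times that of the 2 to 4 group. These ratios were 4.72, 3.39 and 1.84 for NRF1, 2.42, 1.91 and 1.37 for NFY, and 3.56, 2.65 and 1.61 for the full CREB site. Without the members over tRNA genes they were 1.82 (ETS), 4.85 (NRF1), 2.4 (NFY) and 3.66 (CREB) against all other peaks. Cut depth is not given, so no value has a counting error, and 2 libraries give no error on any peak. No paired analysis was possible because there is a single group.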
